A study of Arabis alpina with 18 samples.

Results

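Transcripts of 6 genes for WRKY transcription factors were followed through all groups of an RNA sequencing study in the perennial Arabis alpina, which is related to Arabidopsis. The genes, each with its Arabidopsis locus, were WRKY12 (Aa_G252340h1, AT2G44745), WRKY54 (Aa_G281250h1, AT2G40750), WRKY30 (Aa_G46220h1, AT5G24110), WRKY40 (Aa_G462530h1, AT1G80840), WRKY46 (Aa_G196840h1, AT2G46400) and WRKY53 (Aa_G692610h1, AT4G23810). They were chosen by name: each A. alpina gene was paired with that locus in lists of changed genes that the authors deposited, used only as a dictionary. They are 6 of 34220 genes counted, and 6 of 6 passed the filter on low counts that left 21275 genes.

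The 18 libraries formed 6 groups of 3, with eop055 and pep1-1 plants each giving 3 of them. These were dissected shoot apices of plants 3 weeks old, the same organ at 5 weeks, and, at that second age, leaves 5 and 6. Plants of both genotypes were of the Pajares accession and grew in long days. pep1-1 carries a mutation of PEP1, the A. alpina counterpart of the floral repressor FLC, and the series concerns flowering control by TOE2, an AP2-like repressor. The sources used here give neither the lesion of eop055 nor whether those plants also carry pep1-1. Whether the replicates of a group were separate plants is not stated in the labels, so each p-value reflects only how these libraries scatter, and that scatter may in part be technical.

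WRKY proteins are plant transcription factors that bind W-box elements in promoters through a conserved WRKY domain. In Arabidopsis many of them are switched on within minutes by pathogens, wounding or oxidative stress and act in salicylic acid signalling, while others act in leaf senescence or development. WRKY12 belongs to the developmental side: in Arabidopsis it keeps pith cells from forming secondary walls and promotes flowering in short days, opposite to WRKY13. The other 5 are known there mainly from defence and senescence.

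Libraries held between 7987096 and 14132723 gene counts, and values below are CPM, counts relative to library size after scaling by TMM factors. No gene lengths were used, so levels are compared between libraries for 1 gene and never between genes. The counting could split or merge near-identical family members, which are uncertain for that reason, and the sources used here do not give its strand setting. None of the 4 apex markers and 4 leaf markers chosen to check the tissues carried a name in the authors' lists (0 and 0), so the tissue labels were not checked against them. In bulk tissue, fewer cells of a type and less RNA per cell cannot be told apart. Names exist only for genes that were called by the authors in the libraries described here: of the 1381 such genes tested, 62.1% were higher and 9.56% lower in eop055 leaves than in pep1-1 leaves. Counts of named genes are therefore not independent evidence of a direction. Where groups of 3 libraries are said not to overlap below, the share of all genes that separate likewise was not counted.

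**Figure D1:**
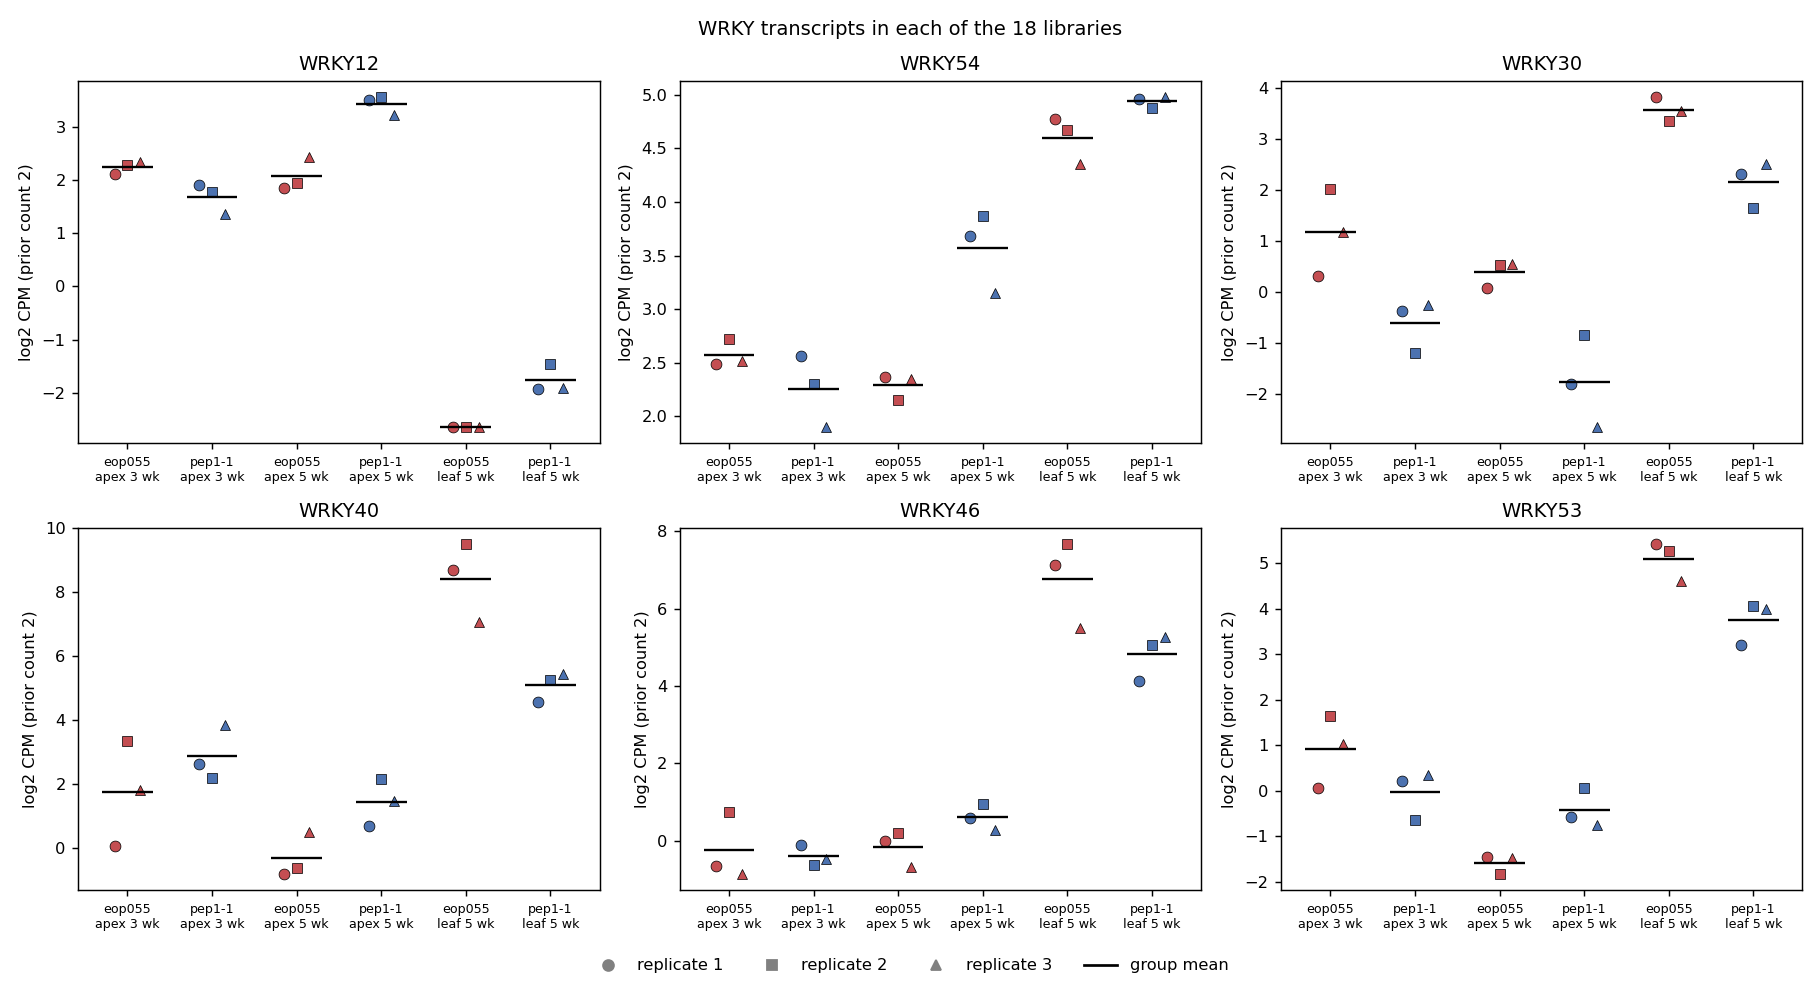
Level of each WRKY gene in all 18 libraries, in log2 CPM with a prior count of 2. Each point is 1 library, its shape gives the replicate number, bars are group means, and each panel has its own vertical scale; WRKY12 and WRKY54 stand apart from the other apex groups in pep1-1 apices at 5 weeks, and the other 4 genes are highest in eop055 leaves.

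WRKY12 was lower in eop055 than in pep1-1 apices at 5 weeks, rose with age in pep1-1 apices, and had a genotype difference that changed between the ages. At 5 weeks it stood at 3.43, 3.67 and 5.25 CPM in eop055 apices, against 11.1, 11.6 and 9.18 CPM in pep1-1 apices. At 3 weeks it stood at 4.15, 4.73 and 4.92 CPM in eop055 apices, against 3.61, 3.25 and 2.40 CPM in pep1-1 apices. The pep1-1 libraries at 5 weeks were above every other library of the series, without overlap. The eop055 libraries were also above the pep1-1 libraries at 3 weeks, by a margin that did not pass the test.

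At 5 weeks the WRKY12 difference was -1.37 ± 0.193 on the log2 scale (SE), 2.58-fold lower in eop055. The Benjamini-Hochberg adjusted p of the quasi-likelihood F test (edgeR, used for all adjusted p-values below) was 3.24e-05. Every SE of a difference was derived from that test, as the size of the difference divided by the square root of F. At 3 weeks the WRKY12 difference was 0.58 ± 0.213 (adjusted p = 0.157, edgeR). From 3 to 5 weeks WRKY12 changed by -0.16 ± 0.204 in eop055 apices (adjusted p = 0.579, edgeR) and by 1.79 ± 0.202 in pep1-1 apices, 3.46-fold higher at 5 weeks (adjusted p = 5.92e-07, edgeR). The genotype difference at 5 weeks minus that at 3 weeks was -1.95 ± 0.288 (adjusted p = 1e-04, edgeR). The ageing and interaction values share libraries with the 5-week comparison through which the authors' list names WRKY12.

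WRKY54 followed the same course in apices, although in Arabidopsis it is known with WRKY70 as a restraint on leaf senescence and as part of salicylic acid signalling. At 5 weeks it stood at 5.01, 4.28 and 4.93 CPM in eop055 apices, against 12.7, 14.4 and 8.74 CPM in pep1-1 apices. At 3 weeks it stood at 5.44, 6.44 and 5.55 CPM in eop055 apices, against 5.76, 4.76 and 3.58 CPM in pep1-1 apices. The genotypes overlapped at 3 weeks and did not overlap at 5 weeks, when all 3 pep1-1 libraries were higher.

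The WRKY54 difference at 5 weeks was -1.33 ± 0.175 on the log2 scale, 2.52-fold lower in eop055 (adjusted p = 8.17e-06, edgeR), and at 3 weeks 0.32 ± 0.188 (adjusted p = 0.459, edgeR). With age WRKY54 changed by -0.30 ± 0.186 in eop055 apices (adjusted p = 0.224, edgeR) and by 1.36 ± 0.177 in pep1-1 apices, 2.56-fold higher at 5 weeks (adjusted p = 2.35e-06, edgeR). The genotype difference at 5 weeks minus that at 3 weeks was -1.65 ± 0.257 (adjusted p = 0.000127, edgeR). WRKY54, like WRKY12, is named through the authors' 5-week apex list of lower genes.

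**Figure D2:**
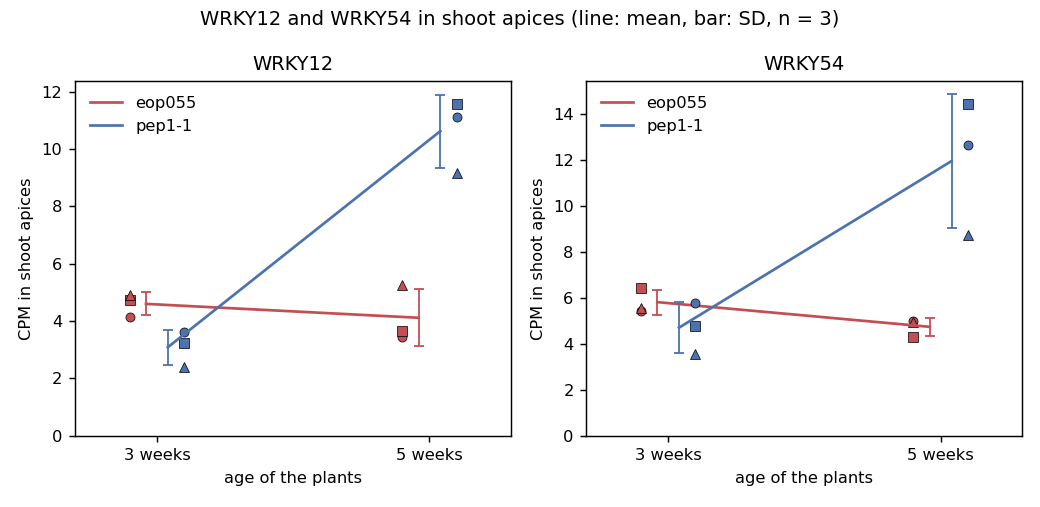
Level of WRKY12 and WRKY54 in shoot apices by age, in CPM, for eop055 (red) and pep1-1 (blue). Points are libraries (shape gives the replicate), lines join group means and bars are the SD (n = 3); both genes are higher at 5 weeks in pep1-1 and lie between 3.43 and 6.44 CPM in every eop055 apex library.

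Genes of the age pathway, through which SPL transcription factors promote flowering, differed the other way between genotypes in apices at 5 weeks. A list of 13 such genes had 7 named and tested members, and at 5 weeks 7 of 7 were higher in eop055, where 7.16% of all genes and 19.6% of all named genes were called higher. SPL5, SPL4 and SPL9 differed by 3.28 ± 0.236, 2.87 ± 0.295 and 1.01 ± 0.113 on the log2 scale (adjusted p = 1.54e-08, 4.12e-07 and 1.2e-06, edgeR). The floral meristem gene AP1 also passed (adjusted p = 1.39e-06, edgeR). The summed level of the 7 genes was 177 to 238 CPM in eop055 and 65.1 to 74.8 CPM in pep1-1 apices at 5 weeks.

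With age, 7 of the 7 genes rose in eop055 apices, where 16.5% of all genes and 15.8% of named genes rose. In pep1-1 apices 5 of 7 rose, where 18.7% of all genes and 12.2% of named genes rose. The other 2 in pep1-1 were LFY, a regulator of floral meristem identity, and AP1, which did not pass. WRKY12 and WRKY54 also rose with age in pep1-1 apices, in the same direction as the list genes called there. For 5 of the 7, which were FD, LFY, SPL10, SPL5 and SPL9, the genotype difference was higher at 5 weeks than at 3 weeks, as it was for 4.49% of all genes and 13.7% of named genes. WRKY12 and WRKY54 thus had their highest apex level in the pep1-1 libraries of 5 weeks, while the summed level of the 7 genes was highest in the eop055 libraries of 5 weeks. A secondary wall list kept because of the role of WRKY12 in pith had 0 of 8 members named and was not assessed.

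WRKY12 had 0 to 2 counts in each leaf library. It had 0, 0 and 0 counts in the eop055 leaf libraries, and 1, 2 and 1 in the pep1-1 leaf libraries. With a floor of 3 counts over the group, it was at least 35.8-fold lower in eop055 leaves than in eop055 apices of the same age, where it had 190 counts. This bound was at least 22.7-fold without eop055 leaf replicate 3 and at least 23.3-fold without replicate 1. In pep1-1 the 4 leaf counts stood against 397 in apices, 77.6-fold lower with a 95% counting interval of 30.1 to 286. Intervals and floors cover counting error only. A genotype difference of WRKY12 in leaves was not detectable at this depth.

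WRKY30, which in Arabidopsis is induced by reactive oxygen and pathogens, was the member that was higher in eop055 in both tissues and at both ages. In leaves it stood at 13.9, 10.1 and 11.6 CPM in eop055, against 4.81, 2.96 and 5.55 CPM in pep1-1. In apices at 3 weeks it stood at 1.09, 3.91 and 2.11 CPM in eop055, against 0.615, 0.276 and 0.678 CPM in pep1-1. In apices at 5 weeks it stood at 0.892, 1.28 and 1.31 CPM in eop055, against 0.127, 0.396 and 0 CPM in pep1-1. The genotypes did not overlap in any of these comparisons, but the apex values rest on few reads, with 100 and 23 counts at 3 weeks and 54 and 6 counts at 5 weeks for eop055 and pep1-1.

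The WRKY30 difference was 2.15 ± 0.473 on the log2 scale in apices at 3 weeks (adjusted p = 0.0112, edgeR), 2.78 ± 0.699 in apices at 5 weeks (adjusted p = 0.00895, edgeR) and 1.42 ± 0.322 in leaves (adjusted p = 0.00228, edgeR). The authors' lists name WRKY30 as higher in each of these comparisons, so its calls are not independent evidence. Counted directly, the 5-week apex ratio was 7.27 with a 95% counting interval of 3.13 to 20.7. The differences of these effects did not pass, with 0.63 ± 0.908 between ages (adjusted p = 0.749, edgeR) and -1.36 ± 0.815 between leaf and apex (adjusted p = 0.266, edgeR). The 3-week call was lost without eop055 replicate 2 (1.57, adjusted p = 0.108, edgeR) or without pep1-1 replicate 2 (1.85, adjusted p = 0.0789). The 5-week call was lost without pep1-1 replicate 1 (adjusted p = 0.0577), and without pep1-1 replicate 2 the fold was 14.1 in place of 6.86.

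WRKY40 showed the widest leaf difference among the 5 genes with leaf counts in both genotypes. In Arabidopsis it acts with WRKY18 and WRKY60 in defence and in abscisic acid responses. It stood at 419, 724 and 134 CPM in eop055 leaves, against 23.8, 38.1 and 43.7 CPM in pep1-1 leaves. Every eop055 leaf library was above every pep1-1 leaf library, and the eop055 libraries themselves spread over a 5.39-fold range, against 1.83-fold among pep1-1 leaves. The difference was 3.59 ± 0.629 on the log2 scale, 12.1-fold higher in eop055 (adjusted p = 0.00108, edgeR), and 7.88-fold without eop055 replicate 2. The leaf calls of WRKY40, WRKY46 and WRKY53 are not independent evidence, since the authors' leaf list of higher genes names them.

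In apices WRKY40 was low and uneven. At 3 weeks it stood at 0.885, 10 and 3.36 CPM in eop055, against 6.07, 4.42 and 14.1 CPM in pep1-1. At 5 weeks it stood at 0.412, 0.489 and 1.25 CPM in eop055, against 1.46, 4.35 and 2.62 CPM in pep1-1. The genotypes overlapped at 3 weeks and did not overlap at 5 weeks. The 5-week difference was -1.87 ± 1.56 on the log2 scale and did not pass (adjusted p = 0.504, edgeR), while the authors' deposited table lists WRKY40 as lower there with an adjusted p of 0.00358. A fit of the compared groups alone gave -1.92 with an adjusted p of 0.00494. The fit over all groups uses 1 spread per gene for the 6 groups, including the eop055 leaves. The leaf difference minus the 5-week apex difference was 5.46 ± 1.66 (adjusted p = 0.0358, edgeR), a call that 9 of 19 alternatives lost.

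WRKY46, which in Arabidopsis acts in salicylic acid and drought responses, resembled WRKY40 in leaves. It stood at 141, 202 and 44.9 CPM in eop055 leaves, against 17.3, 33.2 and 38.0 CPM in pep1-1 leaves. The genotypes did not overlap, yet eop055 replicate 3 lay close to the highest pep1-1 library. The difference was 2.13 ± 0.439 on the log2 scale, 4.37-fold higher (adjusted p = 0.00315, edgeR), and it did not pass in a fit of the 2 leaf groups alone (adjusted p = 0.112). In apices WRKY46 lay between 0.391 and 1.78 CPM in every library. At 5 weeks it stood at 0.823, 0.978 and 0.460 CPM in eop055, against 1.34, 1.78 and 1.05 CPM in pep1-1, without overlap. The genotype difference was 0.43 ± 1.32 at 3 weeks (adjusted p = 0.937, edgeR) and -0.85 ± 1.13 at 5 weeks (adjusted p = 0.707, edgeR), and neither passed.

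WRKY53, a promoter of leaf senescence in Arabidopsis, stood at 42.5, 38.5 and 24.3 CPM in eop055 leaves, against 9.11, 16.5 and 15.9 CPM in pep1-1 leaves. The genotypes did not overlap, and the difference was 1.34 ± 0.264 on the log2 scale, 2.53-fold higher (adjusted p = 0.0012, edgeR). In apices WRKY53 was scarce. At 3 weeks it stood at 0.885, 2.95 and 1.88 CPM in eop055, against 0.999, 0.483 and 1.11 CPM in pep1-1. At 5 weeks it stood at 0.206, 0.122 and 0.197 CPM in eop055, against 0.509, 0.890 and 0.437 CPM in pep1-1.

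WRKY53 thus overlapped between genotypes in young apices and was lower in each eop055 library than in each pep1-1 library at 5 weeks, with 8 against 22 counts (-1.72 ± 0.863, adjusted p = 0.219, edgeR). It was the 1 member called lower with age in eop055 apices, with a difference of -3.38 ± 0.659 on the log2 scale (adjusted p = 0.000701, edgeR). WRKY40 (-2.73 ± 1.35, adjusted p = 0.139, edgeR) and WRKY30 (-1.02 ± 0.406, adjusted p = 0.0559, edgeR) were also below 0 there and did not pass. The value of WRKY46 was -0.09 ± 1.24. The WRKY53 call rests on 8 counts at 5 weeks against 80 at 3 weeks, 10.97-fold lower with a 95% counting interval of 5.31 to 26.3. In pep1-1 apices the ageing value was -0.54 ± 0.625 (adjusted p = 0.528, edgeR), and the test of the difference between genotypes gave -2.84 ± 0.987 (adjusted p = 0.08, edgeR). The leaf difference minus the 5-week apex difference was 3.05 ± 0.901 (adjusted p = 0.0242, edgeR), lost in 5 of 19 alternatives.

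WRKY54 did not share the leaf rise. It stood at 27.3, 25.3 and 20.3 CPM in eop055 leaves, against 31.0, 29.3 and 31.3 CPM in pep1-1 leaves. All 3 eop055 libraries were below the pep1-1 libraries, with a difference of -0.33 ± 0.150 on the log2 scale that did not pass (adjusted p = 0.108, edgeR). Scaling by library size alone gave -0.44 and an adjusted p of 0.0273. The leaf difference minus the 5-week apex difference was 1.00 ± 0.231 (adjusted p = 0.0034, edgeR).

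**Figure D3:**
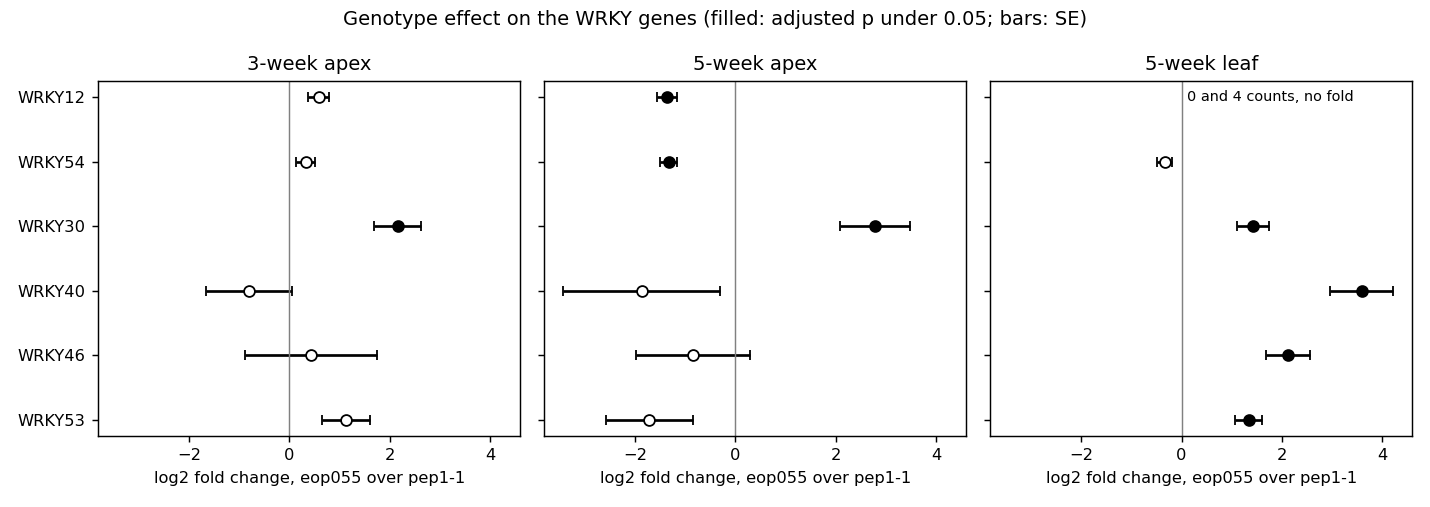
Difference between eop055 and pep1-1 for each WRKY gene in apices at 3 weeks, apices at 5 weeks and leaves at 5 weeks. Values are on the log2 scale, with bars of 1 SE derived from the F statistic of the test. Filled points passed an adjusted p of 0.05 (edgeR); WRKY12 and WRKY54 pass below 0 in 5-week apices, and WRKY30, WRKY40, WRKY46 and WRKY53 pass above 0 in leaves, where WRKY12 (0 counts in eop055 and 4 in pep1-1) has no fold.

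By count, 1 of the 6 genes was higher in eop055 apices at 3 weeks and 5 did not pass, where 3.68% of all genes tested were called, 2.58% higher and 1.1% lower (7.68% and 2.82% of named genes). At 5 weeks 1 was higher, 2 were lower and 3 did not pass, where 14.5% of all genes were called, 7.16% higher and 7.3% lower (19.6% and 15.6% of named genes). In leaves 4 were higher and 2 did not pass, where 26.6% of all genes were called, 15% higher and 11.6% lower. The share of these genes called higher in leaves is close to the 62.1% among all named genes. The median difference of the 6 genes was 0.51, -1.35 and 1.38 on the log2 scale in 3-week apices, 5-week apices and leaves, against 0, 0 and -0.01 over all genes tested, with WRKY12 entering the leaf median as its lowest value.

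With age 1 of the 6 genes was called lower in eop055 apices and 5 did not pass. There 35.9% of all genes were called, 16.5% higher and 19.4% lower (15.8% and 26.2% of named genes). In pep1-1 apices 2 rose, where 38.9% were called, 18.7% higher and 20.3% lower (12.2% and 20.3% of named genes). The genotype difference was lower at 5 weeks than at 3 weeks for 2 genes, where 10.6% of all genes were called, 4.49% higher and 6.16% lower (13.7% and 14.3% of named genes). It was higher in leaf than in apex for 3 genes, where 20.1% were called, 10.9% higher and 9.16% lower. Of all named genes 42.4% were higher in this contrast, a share close to that of the 6 genes. These comparisons share libraries with one another, so their values stand side by side and are not separate evidence.

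Between tissues, 5 of the 6 genes were higher in leaves than in apices at 5 weeks in each genotype and WRKY12 was lower, where 83.2% of all genes were called in eop055 (39% higher, 44.2% lower) and 80.3% in pep1-1 (37.3% higher, 43% lower). Of named genes 70.5% were higher in leaves in eop055 and 57.3% in pep1-1. In eop055 the leaf against apex difference was 9.19 ± 0.956 for WRKY40, 7.58 ± 0.456 for WRKY53, 7.39 ± 0.662 for WRKY46, 3.34 ± 0.362 for WRKY30 and 2.36 ± 0.171 for WRKY54 on the log2 scale. In pep1-1 it was 3.73 ± 0.876, 4.52 ± 0.422, 4.42 ± 0.668, 4.69 ± 0.584 and 1.35 ± 0.155 for the same genes in that order. The largest adjusted p of these was 0.00158, for WRKY40 in pep1-1 (edgeR). WRKY53, WRKY40, WRKY46 and WRKY30 rest on few apex reads here, with 8, 33, 35 and 54 counts in eop055 apices. In pep1-1 apices they had 22, 97, 51 and 6 counts in that order. Counted directly, WRKY53 was 200-fold higher in eop055 leaves, with a counting interval of 101 to 465. Without eop055 apex replicate 3 the WRKY40 fold in eop055 was 919 in place of 586, and 384 without eop055 leaf replicate 2. Without pep1-1 apex replicate 2 the WRKY30 fold in pep1-1 was 53.1 in place of 25.9.

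Scaling bears on every leaf against apex value. TMM factors were 1.15 to 1.27 in apices and 0.651 to 0.730 in leaves, and with library size alone the median difference of all genes was -1.05 in eop055 and -0.92 in pep1-1. WRKY54 was then 0.56 higher in pep1-1 leaves on the log2 scale in place of 1.35, and 1.44 in eop055 leaves in place of 2.36. The direction of all 6 genes was the same under both scalings.

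The order of the groups differed between the genes. WRKY12 was highest in pep1-1 apices at 5 weeks (10.6 ± 1.27 CPM, SD, n = 3), followed by the other 3 apex groups, whose neighbours overlapped, and then by leaves. WRKY54 was highest in pep1-1 leaves (30.5 ± 1.09 CPM), then eop055 leaves (24.3 ± 3.59 CPM), then pep1-1 apices at 5 weeks (12.0 ± 2.91 CPM), with no overlap between these neighbours. It was lowest in eop055 apices at 5 weeks and pep1-1 apices at 3 weeks, which overlapped. WRKY30, WRKY40, WRKY46 and WRKY53 were highest in eop055 leaves and second in pep1-1 leaves. For WRKY40, WRKY46 and WRKY53 no apex library reached the lowest leaf library, while for WRKY30 pep1-1 leaves overlapped eop055 apices at 3 weeks.

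Other WRKY genes were higher in eop055 leaves as well. Of a list of 25, 7 were named and tested, and 7 of 7 were higher, where 15% of all genes and 62.1% of named genes were higher, with a summed level of 375 to 1027 CPM in eop055 and 198 to 215 CPM in pep1-1 leaves. WRKY18, the partner of WRKY40 in Arabidopsis, stood at 392, 562 and 115 CPM in eop055 leaves, against 42.9, 59.6 and 62.1 CPM in pep1-1 leaves. It differed by 2.70 ± 0.478 on the log2 scale (adjusted p = 0.00117, edgeR), and WRKY11, WRKY25 and WRKY26 by 1.75 ± 0.265, 1.17 ± 0.126 and 1.07 ± 0.219. In 5-week apices WRKY26 was higher in eop055 (2.03 ± 0.486, adjusted p = 0.00563, edgeR), WRKY25 lower (-0.91 ± 0.245, adjusted p = 0.0163, edgeR), and 5 did not pass, beside 7.16% of all genes called higher and 7.3% lower.

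Genes of salicylic acid and immune signalling moved in the same direction in leaves. Of a list of 27, 11 were named and tested, 10 were higher in eop055 leaves and PR2 did not pass, beside the same 15% of all genes and 62.1% of named genes. PAD4, a lipase-like regulator of basal resistance, differed by 1.3 ± 0.131 on the log2 scale, the oxidase RBOHD by 1.53 ± 0.206, the ubiquitin ligase PUB24 by 1.79 ± 0.354 and the transcription factor CBP60g by 1.34 ± 0.256. Of 7 senescence genes 3 were named: NAP (3.63 ± 0.672, adjusted p = 0.000934, edgeR) and SAG21 (1.41 ± 0.302, adjusted p = 0.00393, edgeR) were higher in eop055 leaves, and SEN1 differed by 1.02 ± 0.368 (adjusted p = 0.057, edgeR).

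Rapid stress and wound response genes, which plants induce on touch, wounding or cold, moved with them. Of a list of 18, 13 were named and tested, and 13 of 13 were higher in eop055 leaves, beside those same shares, with a median difference of 2.28 on the log2 scale against -0.01 over all genes. TCH4, a touch-induced wall enzyme, differed by 2.76 ± 0.534, the dehydration regulator DREB2A by 2.61 ± 0.485, ERF5 by 1.94 ± 0.348 and the jasmonate enzyme LOX3 by 1.70 ± 0.218. The summed level of the 13 genes was 3200, 5422 and 998 CPM in eop055 leaves, against 395, 679 and 684 CPM in pep1-1 leaves. In a fit of the 2 leaf groups alone, 3 of 7 other WRKY genes, 4 of 11 immune genes and 2 of 13 stress genes passed. That fit called 2178 of all genes higher and 1246 lower, in place of 3187 and 2474. Its shares of all genes and of named genes are not given here, so these list counts have no background beside them.

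In some groups the WRKY genes and the stress list had the same extreme library. Among eop055 leaves, replicate 3 was lowest for 13 of the 13 stress genes, for 6 of 7 other WRKY genes and for 4 of the 5 members with counts, where it was lowest for 33.6% of all genes. Replicate 2 was highest for 13 of 13 stress genes and 7 of 7 other WRKY genes. It was highest for only 2 of the 5 members, WRKY40 and WRKY46, and for 33.6% of all genes. Among pep1-1 leaves, replicate 1 was lowest for 12 of 13 stress genes and 4 of the 6 members. It was lowest for 3 of 7 other WRKY genes and 36.9% of all genes. Among eop055 apices at 3 weeks, replicate 2 was highest for 13 of 13 stress genes, 5 of the 6 members and 34.3% of all genes, and its summed stress level was 210 CPM against 101 and 102 CPM in replicates 1 and 3. In pep1-1 apices at 5 weeks the lists parted, with replicate 2 highest for 6 of the 6 members, 4 of 13 stress genes and 32.5% of all genes. That library had the fewest gene counts of the series (7987096) and the largest share of reads outside genes (16.6%). The part of the spread between replicates in the WRKY differences was not tested. With any 1 leaf library left out, 4 of the 6 genes were called in leaves, beside 4296 to 5755 of all genes. The shares of named genes in those fits are not given, and this count does not separate the WRKY differences from that spread.

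**Figure D4:**
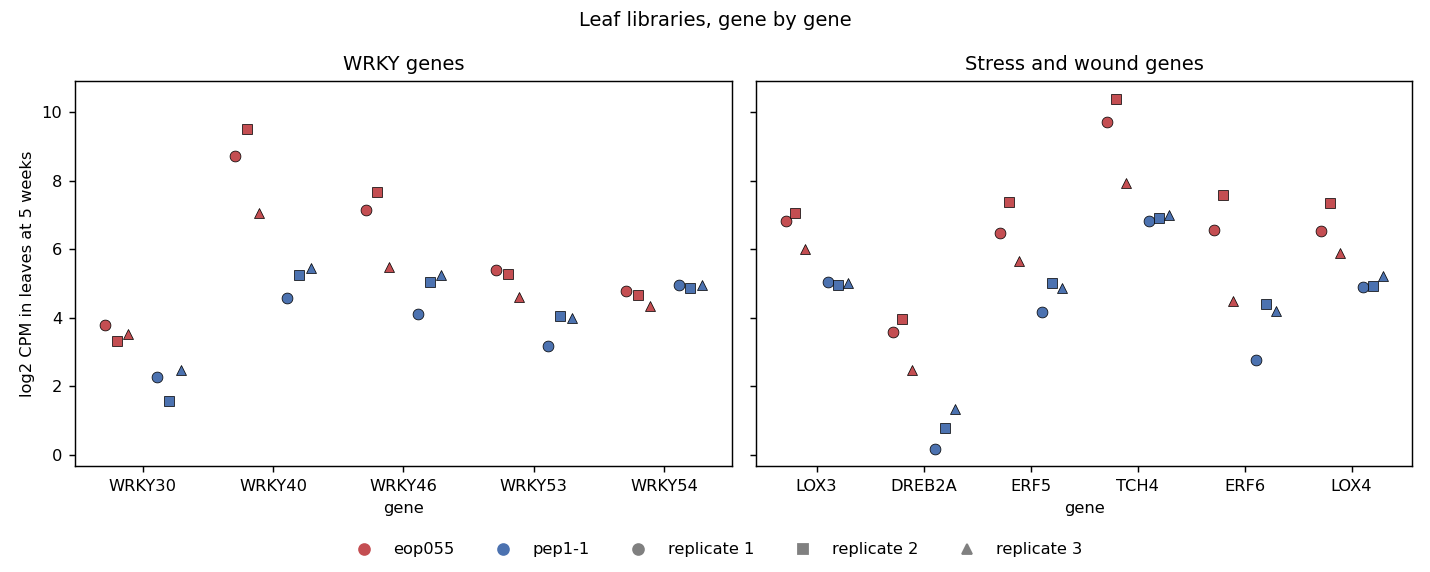
Level of 5 WRKY genes and 6 stress and wound genes in each leaf library at 5 weeks, in log2 CPM. Colour gives the genotype and shape the replicate. In eop055, replicate 3 is the lowest library for every stress gene shown and for WRKY40, WRKY46, WRKY53 and WRKY54. For the WRKY genes shown the genotypes do not overlap, with eop055 higher for WRKY30, WRKY40, WRKY46 and WRKY53 and lower for WRKY54. The WRKY54 difference did not pass, and the share of all genes that separate this way was not counted.

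The named genes closest in pattern were found by the root mean square difference of log2 CPM over the 18 libraries, each gene centred on its own mean, among 1380 candidates. ERF6 (0.66), LOX4 (0.75) and HSPRO2 (0.81) were closest to WRKY40. ERF6, an ethylene-responsive factor, stood at 95.3, 191 and 22.5 CPM in eop055 leaves, against 6.86, 21.2 and 18.2 CPM in pep1-1 leaves, with replicates 2 and 3 at the same extremes as for WRKY40. CCR3 (0.50), AT3G19030 (0.50) and ABCB21 (0.51) were closest to WRKY53, and AT2G36770 (0.52), AT1G50630 (0.54) and IP5PII (0.54) to WRKY46.

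For the others, FBA6 (0.72), ATBBE16 (0.73) and RLP46 (0.74) were closest to WRKY30, and AT1G62480 (0.41), TRM25 (0.52) and AT1G20530 (0.52) to WRKY12. AT1G02700 (0.37), PLC1 (0.38) and BEE1 (0.39) were closest to WRKY54. Among the 6 genes themselves the smallest distance was between WRKY40 and WRKY53 (1.05), and WRKY12 was farthest from the rest (3.15 to 5.02). These distances describe 18 libraries that share tissues and groups, and no test was made on them.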

How the data were processed

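Per the labels' protocols, poly(A) RNA went into a directional kit and single reads were sequenced. The authors deposited raw read counts per gene for 18 libraries, and lists of changed genes whose adjusted p-values were made by the authors and which were used here to pair A. alpina genes with Arabidopsis loci and names. STAR, DESeq, DESeq2 and HTSeq 0.5.4p1 are named without roles, per the submitters' processing notes. For the genome build, annotation and strand setting, nothing was given in the sources used here.

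Entries of the deposited counts that name no gene were left out: 7.76 to 16.6% of reads per library fell outside genes and 2.01 to 3.60% were ambiguous. Of 1816 listed genes, 1399 matched 1 count entry and 1 locus. Groups and replicate numbers came from the labels. Replicates differed by a chi-square per gene of 1.51 (pep1-1 leaf replicates 2 and 3, where technical replicates cannot be told apart) to 26.2 (eop055 leaf replicates 2 and 3), and each was counted as 1 sample.

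The analysis used edgeR 4.0.16 (with limma 3.58.1, under R 4.3.3): filterByExpr, TMM scaling, 1 fit of 6 group means over all libraries, and the robust quasi-likelihood F test with Benjamini-Hochberg adjustment over 21275 genes at 0.05. The test was tried on simulated data. Log2 CPM used a prior count of 2, groups at 0 were given a group-wide floor of 3 counts, and ratios of few counts have exact Clopper-Pearson 95% intervals. Replicate numbers were checked for pairing through the correlation of same-numbered deviations from group means. The 6 genes were counted in every comparison, but some of their values that did not pass are not printed. Up to 4 members of each list were named, those with the lowest adjusted p in leaves (in 5-week apices for the age pathway). Members named beyond these because few remained in a count (LFY, FD, SPL10, PR2, SEN1) were chosen after their values were seen. Members, lists, tests and alternatives were chosen with earlier results of these data known. Alternatives were RLE scaling, library size alone, DESeq2 1.42.0, no filter or a stricter one (at least 50 counts in 3 libraries), only the compared groups, a replicate block and leaving out each library. Figures were drawn with matplotlib 3.10.9.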

Additional observations from a re-analysis of the deposited data

Results flagged for a closer look

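The difference between eop055 and pep1-1 apices at 5 weeks minus that at 3 weeks was -1.95 for WRKY12 and -1.65 for WRKY54 on the log2 scale. Both were picked out because the difference itself passed the test. The genotype difference was higher in leaves than in 5-week apices by 5.46 for WRKY40, 3.05 for WRKY53 and 1.00 for WRKY54 on the log2 scale, again by a test of the difference itself. For WRKY54 a 5-week apex difference of -1.33 stood beside a leaf difference of -0.33, both below 0, whereas for WRKY40 and WRKY53 the leaf values were above 0 and the apex values below 0.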

How the results depend on the processing

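Of 770 values of the 6 genes under the alternatives, 733 kept their direction and their side of the adjusted p threshold of 0.05, 18 lost the call, 14 gained one and 5 reversed. The calls of WRKY12 and WRKY54 in 5-week apices, in pep1-1 ageing and for the difference between ages held in all 13, 13 and 19 alternatives. The reversed values were uncalled: WRKY46 ageing in eop055 apices was 0.033 with library size alone, 0.16 without eop055 5-week apex replicate 3 and 0.78 without eop055 3-week apex replicate 2 (-0.39 to 0.78 over left-out libraries). Without that last library WRKY46 differed between genotypes at 3 weeks by -0.44 (range -0.44 to 0.73) and the age interaction of WRKY40 was 0.14 (range -1.76 to 0.14). The number of the 6 genes called in eop055 ageing was 1 in the main analysis, 2 with RLE scaling, 3 with DESeq2 and 1 to 2 when libraries were left out. Leaving out libraries gave 0 to 1 of the 6 genes at 3 weeks (without pep1-1 or eop055 replicate 2 none), 1 to 4 for leaf minus apex, and 359 to 592 genes called at 3 weeks in place of 783. With only the compared groups fitted, 1712 genes were called at 3 weeks and 3424 in place of 5661 in leaves; the causes were not tested. Among the 6 genes the fit of the compared groups called WRKY40 in 5-week apices (adjusted p = 0.00494), WRKY46 in pep1-1 ageing (0.0196) and the age interaction of WRKY53 (0.0145), and lost WRKY46 in leaves (0.112). DESeq2 gained WRKY53 in 5-week apices (adjusted p = 0.046) and its age interaction (0.00318), the leaf minus apex value of WRKY46 (0.00313), WRKY30 and WRKY40 in eop055 ageing (0.025 and 0.00374) and WRKY30 in pep1-1 ageing (0.0469). The adjusted p of the leaf minus apex value reached 0.122 for WRKY40 and 0.0936 for WRKY53. With library size alone, calls split 2446 higher and 4307 lower in leaves in place of 3187 and 2474, 5833 and 2905 in place of 3521 and 4122 for eop055 ageing, and 5901 and 2863 in place of 3971 and 4314 for pep1-1 ageing. The leaf minus apex split was 1777 and 3326 in place of 2325 and 1948. For leaf against apex it was 4925 and 14157 in place of 8294 and 9409 in eop055, and 4548 and 13948 in place of 7941 and 9138 in pep1-1. Medians of all genes were then -0.12 for leaves, 0.14 and 0.13 for ageing and -0.14 for leaf minus apex. Alternatives for the gene lists were added after seeing the data: in leaves, leaving out libraries gave 6 to 7 other WRKY, 9 to 11 immune and 10 to 13 stress genes. Those fits called 4296 to 5755 of all genes, and their shares of named genes are not given. Depth limits WRKY30, WRKY46 and WRKY53 in apices, at a few counts per library.

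The replicate numbers were not treated as pairs, since same-numbered deviations correlated at -0.285 to 0.193 and not every pair passed 0.1. Weak correlations cannot show that the samples were unpaired, because each deviation is from a mean of 3 libraries. With the replicate number as a block, the 5-week apex value of WRKY12 was -1.37 and the leaf value of WRKY40 3.52, and 54 of 54 values of the 6 genes kept direction and call.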

Other observations

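WRKY58 and WRKY23 were also named in the authors' lists but stood outside the list of other WRKY genes, and were chosen after their values were seen. In leaves WRKY58 was higher in eop055 by 1.55 ± 0.137 on the log2 scale (SE, adjusted p = 4.51e-08, edgeR) and WRKY23 by 1.94 ± 0.308 (adjusted p = 6.05e-05). In 5-week apices their differences were 0.48 ± 0.390 (adjusted p = 0.547, edgeR) and 0.13 ± 0.231 (adjusted p = 0.779). WRKY58 was higher in leaves than in apices by 6.19 ± 0.199 in eop055 and 5.12 ± 0.237 in pep1-1. WRKY23 differed by -1.76 ± 0.302 in pep1-1 (adjusted p = 1.09e-05, edgeR) and by 0.05 ± 0.239 in eop055 (adjusted p = 0.857, edgeR).

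In pep1-1 apices at 5 weeks, replicate 3 was the lowest library for 5 of the 6 WRKY genes, and for 30.6% of all genes.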
